A study of Mus musculus with 12 samples.

Results

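The genes described here are 10 mRNAs of the translation machinery, taken by name from a list: Eef1a1, Eef1b2, Eef1d, Eef1g, Eef2, Eef2k, Eif5a, Pabpc1, Tpt1 and Naca. All 10 were among the 55487 genes of the input count table. In the table of normalized input and footprint values, which holds 10607 genes, 9 of them were present and Tpt1 was not, so Tpt1 has input values only. The data come from livers of 3 WT and 3 Mettl5-KO mice, where the KO mice lack METTL5, an enzyme that methylates an adenosine of the small ribosomal subunit RNA. From each liver 1 input library (RNA of the lysate after rRNA depletion) was sequenced. So was 1 library of ribosome-protected fragments (RPFs, the stretches of mRNA covered by ribosomes), which makes 12 libraries in all. WT and KO mice with the same number were littermates.

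The KO mice carried a floxed exon 2 that was deleted in the whole body by a Cre transgene under a CMV promoter, line B6.C-Tg(CMV-cre)1Cgn/J. The floxed allele was made in ES cells of an F1 hybrid of C57bl/6 and 129S6, and the line was backcrossed to B6. Whether WT littermates carried the floxed allele or Cre is not given in the sources used here. The study used both sexes at ages from 4 weeks to 6 months, with no sex or age given for each of these mice. Livers of both groups were frozen without treatment and lysed with cycloheximide, which holds ribosomes in place. Footprints were made with MNase, a nuclease that digests the RNA not covered by ribosomes.

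During elongation, eEF1A (from Eef1a1) carries aminoacyl-tRNA to the ribosome, the eEF1B complex recharges it with GTP, and eEF2 moves the ribosome along the mRNA until its kinase, eEF2K, switches it off. Many mRNAs of this machinery, together with those of the ribosomal proteins, begin with a C followed by a run of pyrimidines, the 5′ terminal oligopyrimidine (TOP) motif. In mammalian cells such TOP mRNAs move between translated and untranslated pools under the control of mTOR and LARP1. In liver they are known for answering to feeding and growth signals.

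The motif itself was read from the annotated transcript starts of GENCODE vM21 (build GRCm38), with a TOP start taken as a C at the first base followed by at least 4 more C or T. Eef1d and Pabpc1 had it, while Eef1a1, Eef1g, Eef2, Eef2k, Eif5a, Tpt1 and Naca did not. That is 2 of the 9 members read for it, against 26.6% of 79 cytosolic ribosomal protein genes and 4.57% of the 8930 tested genes with an annotated coding transcript. For Eef1d it stood at 1 of 7 annotated coding transcripts and for Pabpc1 at its 1 transcript. The starts of these 2 genes are shown because they carry the feature that gives this class its name, with the pyrimidine run in capitals. The next starts, of the most abundant members Eef1a1 and Eef2, are shown for contrast, and capitals mark any pyrimidine run at their first base.
Eef1d, transcript Eef1d-217, chr15:75909277-75909306, minus strand: CTCTCCTTTgcagtcctgagctcgcagttc
Pabpc1, transcript Pabpc1-201, chr15:36608944-36608973, minus strand: CCCCTTCTCCCCggcggttagtgctgagag
Eef1a1, transcript Eef1a1-201, chr9:78481695-78481724, minus strand: TTCCCgagggtgggggagaacggtatataa
Eef2, transcript Eef2-201, chr10:81176631-81176660, plus strand: gttgacgtcagcggtctcttccgccgcagc
The runs of Eef1d and Pabpc1 were 9 and 12 pyrimidines long. Eef1a1 begins with 5 pyrimidines but with T at its first base, and Eef2 begins with a purine. Annotated starts need not be the starts used in liver, so the motif's absence here says only that these letters do not stand at the annotated first base.

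A second sequence feature bears on how these genes can be counted, because footprints are short. Footprints of 25 to 34 bases were mapped by the authors to a single location only, as was the input, whose reads are longer. For each gene, every stretch of 30 coding bases was looked up in the genome. The share of these windows with an exact match outside the gene was taken. The authors allowed 2 mismatches in mapping footprints, so near copies can also make a footprint ambiguous, and these shares do not count them. Of the 8994 genes ranked below, the median share was 0%, and 9.36% of them had a share over 20%. The members stood far above this except for Eef2k, whose coding sequence had no repeated window among 2143. The share was 24.6% for Eef1b2, 31.4% for Eef2, 42.8% for Eef1d, 43.0% for Eif5a and 50.8% for Pabpc1. It was 88.9% for Eef1a1, 94.6% for Naca, 95.2% for Eef1g and 100% for Tpt1, the gene missing from the footprint table. The repeats of Eef1a1 lay in 19 other loci that shared at least 30 windows with it, and all 19 overlapped an annotated pseudogene. The first 30 coding bases of Eef1a1, Eef1g and Eef2k, with the start codon in capitals, show the contrast.
Eef1a1: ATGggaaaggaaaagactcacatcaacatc
Eef1g: ATGgcggctgggaccctgtacacataccct
Eef2k: ATGgcagacgaagacctcatcttctgcctg
The first of these occurs at 4 places in the genome, the second at 2 and the third at 1.

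Depth and the check of the knockout were as follows. Input libraries held 8326325 to 11825643 counted read pairs, and the normalized table rests on 2398804 to 5121304 input reads and 4623826 to 9184242 RPF reads per library. There were 67, 56 and 103 RPF reads of Mettl5 in the WT livers and 12, 9 and 10 in the KO livers, a log2 fold change of −2.64 (SE 0.36, adjusted p = 0.00504, limma), with input lower in each of the 3 litters (log2 fold change −1.59, SE 0.46, edgeR adjusted p = 0.999). The 4 hepatocyte markers summed to between 16648 and 34663 CPM (here counts scaled to all counts of the library) in input, while those of the other liver and blood cells reached at most 139. Of the 7 marker lists none had a gene that passed in either direction in input, RPF or TE. The sum of 4 stellate cell markers in RPF was 1589 to 1826 in WT and 2322 to 2563 in KO livers, with no overlap. Of these 4 genes, 3 were higher and 1 lower in KO (smallest limma adjusted p = 0.0934). Among all single genes tested in RPF, 6.97% were higher in KO without overlap. The part of stellate cells in the differences below was not tested. In bulk liver, a change in the number of cells of a type and a change in RNA per cell cannot be told apart.

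Taken per length, Eef2 and Eef1a1 had the highest input levels among the 9 members with normalized values. On the scale of normalized input values per kb of exon, WT livers had 1342 ± 138 for Eef2 and 1236 ± 172 for Eef1a1 (SD, n = 3), a difference smaller than the spread between livers. Eif5a, whose hypusine-bearing product helps ribosomes past stalling sequences, followed with 265 ± 19.5, Eef1b2 with 158 ± 17.1 and Pabpc1, the cytoplasmic poly(A)-binding protein, with 121 ± 5.60. Eef1d had 31.2 ± 0.748, Eef1g 29.0 ± 6.82 and Naca, a subunit of the nascent polypeptide-associated complex, 25.2 ± 4.77. The kinase gene Eef2k was lowest, at 6.90 ± 1.19. Tpt1, which has no normalized value, stood beside Eif5a on the scale of input CPM per kb of exon, with a mean of 20.6 (18.8 to 22.8 over 3 WT livers) against 19.9 (18.3 to 21.3), ranges that overlapped. CPM of single genes, here and below, were also scaled with edgeR's TMM factors, unlike the marker sums above. The exon lengths of Naca, Pabpc1 and Eef1d, between 6488 and 6805 bases, include exons outside their representative transcripts of 885 to 2817 bases, which lowers their level per kb.

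In footprints the order was different. On the scale of normalized RPF values per kb of coding sequence, Eif5a stood first with 856 ± 104, then Eef2 with 687 ± 227 and Eef1b2 with 549 ± 169. The range of Eef2 over the 3 WT livers overlapped those of both others. Eef1a1 had 316 ± 93.9, Eef1d 285 ± 26.2 and Pabpc1 184 ± 30.0. Naca had 34.1 ± 8.33, Eef2k 11.8 ± 5.71 and Eef1g 5.73 ± 1.51. The counted footprints of the 3 subunits of eEF1B thus spread over a wide range. Repeated coding windows made up 95.2% for Eef1g, 42.8% for Eef1d and 24.6% for Eef1b2, so these levels are not directly comparable. The part of repeats in the spread was not tested. The 9 genes together took 0.0597 to 0.0990% of the RPF reads of a library and 0.212 to 0.316% of the input reads in the table.

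**Figure D1:**
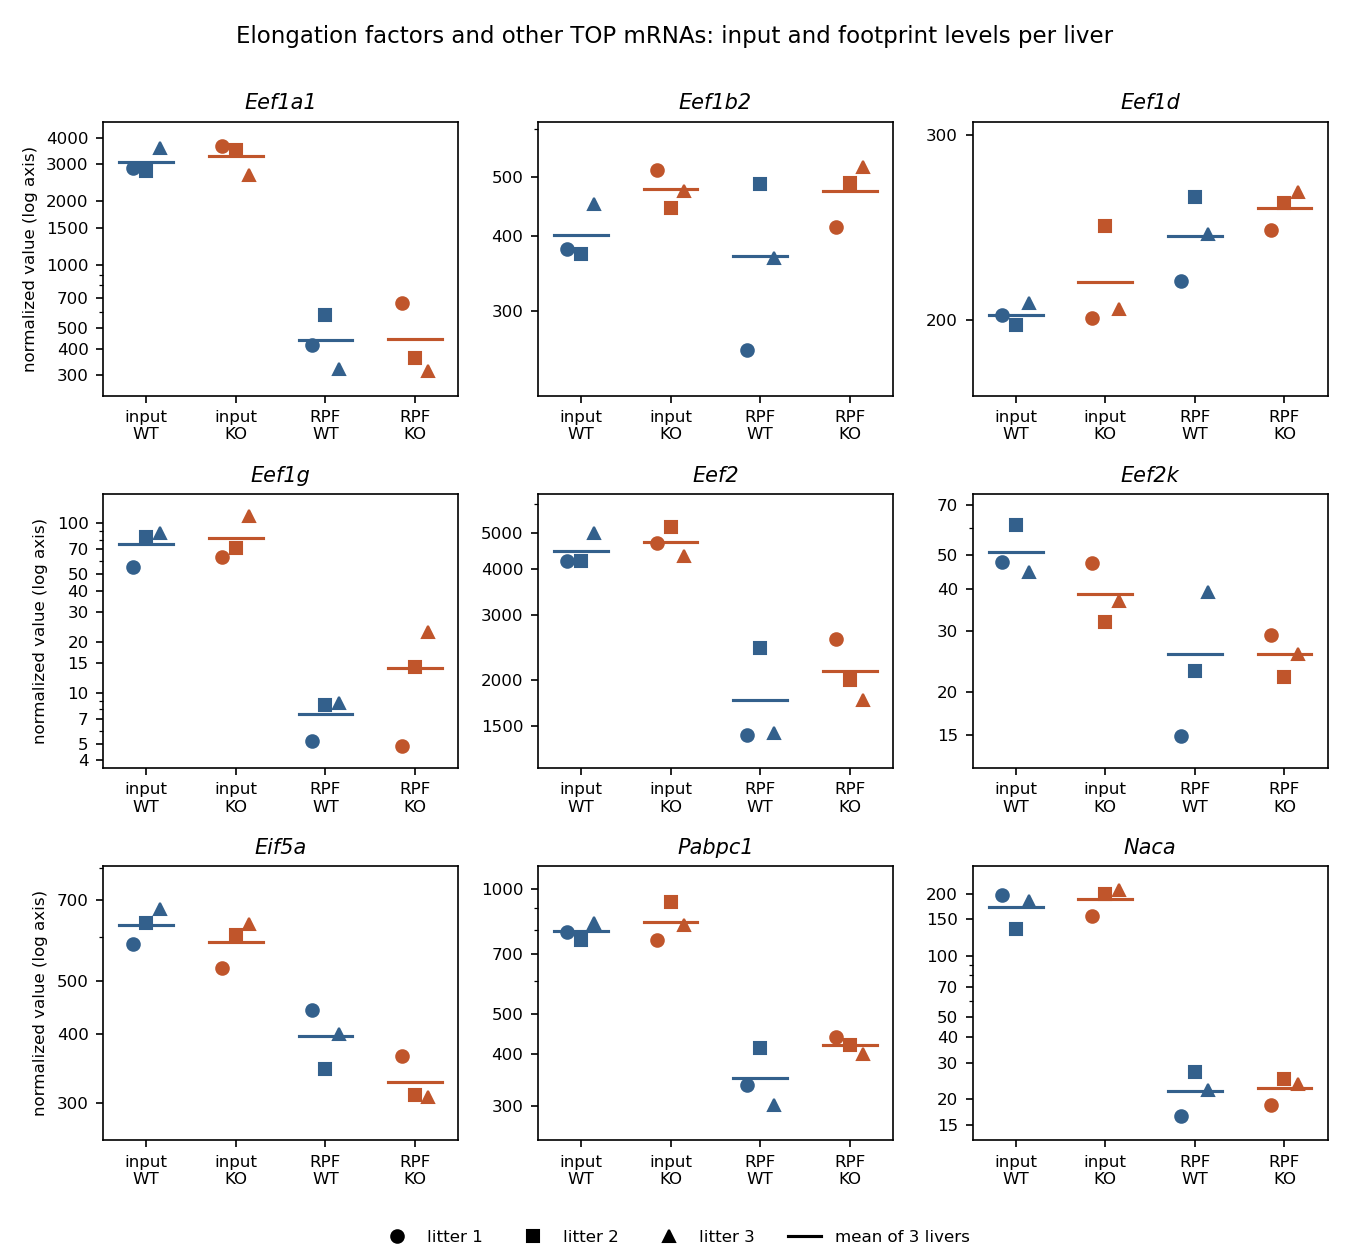
Normalized input and RPF values (log axis, not divided by length) of the 9 genes with footprints in each liver. Symbols give the litter and bars the mean of 3 livers, WT in blue and KO in orange. WT and KO livers overlap in every panel, and the step from input down to RPF is widest for Eef1a1, Eef1g and Naca.

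Translation efficiency (TE), the log2 ratio of the normalized RPF value to the input value with 1 added to each, was low in WT liver for most of the group. Among 8994 genes whose mean normalized value reached 10 in input and in RPF, 8 of the 9 genes ranked under the 50th percentile and 3 under the 10th, and the median member was at percentile 15.0. These counts rest on values not divided by length, and they change with length, as given below. TE here is relative to the other genes of the table, whose median in WT was 0.09.

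The gene lowest in TE was Eef1g, the gamma subunit that anchors the eEF1B complex. Its log2 TE was −3.17, −3.14 and −3.19 in WT livers 1 to 3, at percentile 1.00 to 1.22. It rests on few footprints, with 6, 10 and 17 RPF reads. Naca followed with log2 TE of −3.49, −2.26 and −2.99 on 19, 32 and 43 RPF reads. Eef1a1 had −2.78, −2.27 and −3.48 on 480, 677 and 620 RPF reads, many times the reads of the other two. The ranges of these 3 genes overlapped, and none reached the range of the next gene. They are also the 3 members with TE values whose repeated windows exceed 80%.

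Eef2, the translocase, came next with log2 TE of −1.56, −0.78 and −1.79 in WT livers 1 to 3, on 1632, 2865 and 2795 RPF reads. Pabpc1 had −1.23, −0.87 and −1.45. Both were highest in WT liver 2 and lowest in WT liver 3, as was Eef1a1. Eef2k had −1.62, −1.37 and −0.18, the widest spread of the group, on 17, 27 and 76 RPF reads. Eif5a had −0.40, −0.88 and −0.75. From Eef2 upward, each gene's range overlapped that of its neighbour in the order.

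The 2 genes highest in TE were the nucleotide exchange subunits of eEF1B. Eef1b2, the beta subunit, had log2 TE of −0.55, 0.38 and −0.30, at percentiles 29.2, 61.3 and 37.1. Eef1d, the delta subunit, had 0.11, 0.41 and 0.22, at percentile 50.4 to 62.2, so it was the single member above the middle of all genes in each WT liver. Eef1d has an annotated TOP start in 1 of 7 transcripts, and Pabpc1, which has one in its 1 transcript, lay at percentile 10.0 to 20.5.

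**Figure D2:**
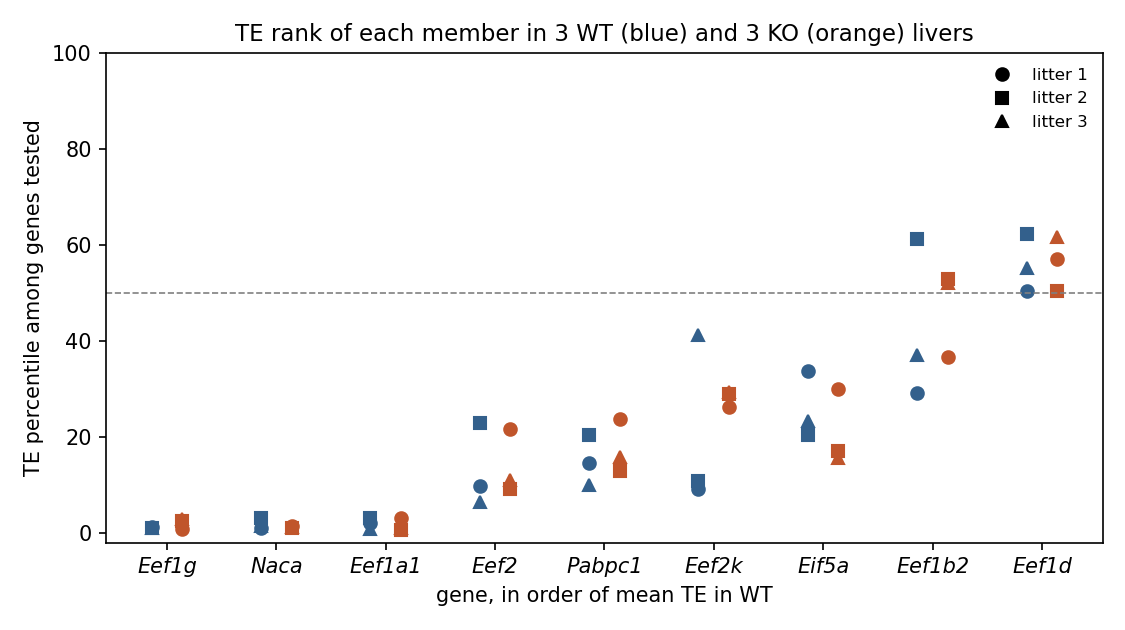
TE percentile among 8994 genes (y axis) for the 9 genes in order of their mean TE in WT (x axis), with 1 point per liver, WT in blue and KO in orange, and symbols for litters. Eef1g, Naca and Eef1a1 stay under the 4th percentile in all 6 livers, and Eef1d stays above the dashed line at the 50th.

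Because neither value in TE is per length, gene length enters the rank. With RPF per kb of coding sequence over input per kb of exon, Eef1g and Eef1a1 ranked at percentiles 0.479 and 0.679, and Eef2 was at 2.54. Eif5a was at 50.7, Eef1b2 at 53.0 and Eef1d at 88.9, each higher than without length and above the middle of all genes. Naca was at 19.0 by this measure. With the length of the representative transcript in place of all exons, Naca was at 0.842. Eif5a was then at 46.8, Eef1b2 at 61.1 and Eef1d at 72.6. Eef1g, Eef1a1 and Eef2 ranked at 13.0 or lower by each of these 3 measures, and Naca moved with the length used.

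Among all genes the share of repeated windows went with low TE only at its upper end. The median TE percentile in WT was 50.8 for the 6419 genes with no repeated window, and 51.4, 53.7 and 47.6 for genes with a share up to 20%, 50% and 80%. It was 18.3 for the 123 genes over 80%, of which 30.9% lay under the 10th percentile against 7.57% of genes with no repeated window. Within those 123 genes, the 19 cytosolic ribosomal protein genes had a median of 3.05, and the 101 that are neither ribosomal proteins nor members had a median of 23.8. The lower quartile of these 101 was 11.3, and Eef1a1, Eef1g and Naca lay below it. Genes with under 20% repeated windows were split by TOP start, again without ribosomal proteins and members. The 359 with one had a median percentile of 46.3 and the 7780 without one 51.1. This rule found a TOP start in only 26.6% of the cytosolic ribosomal protein genes. The group without one can thus hold TOP mRNAs, and the contrast cannot say whether TOP mRNAs have low TE. How far unmappable footprints set the low TE of Eef1a1, Eef1g and Naca was not tested. Eef2k, at percentile 20.4 on average, has no repeated window.

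**Figure D3:**
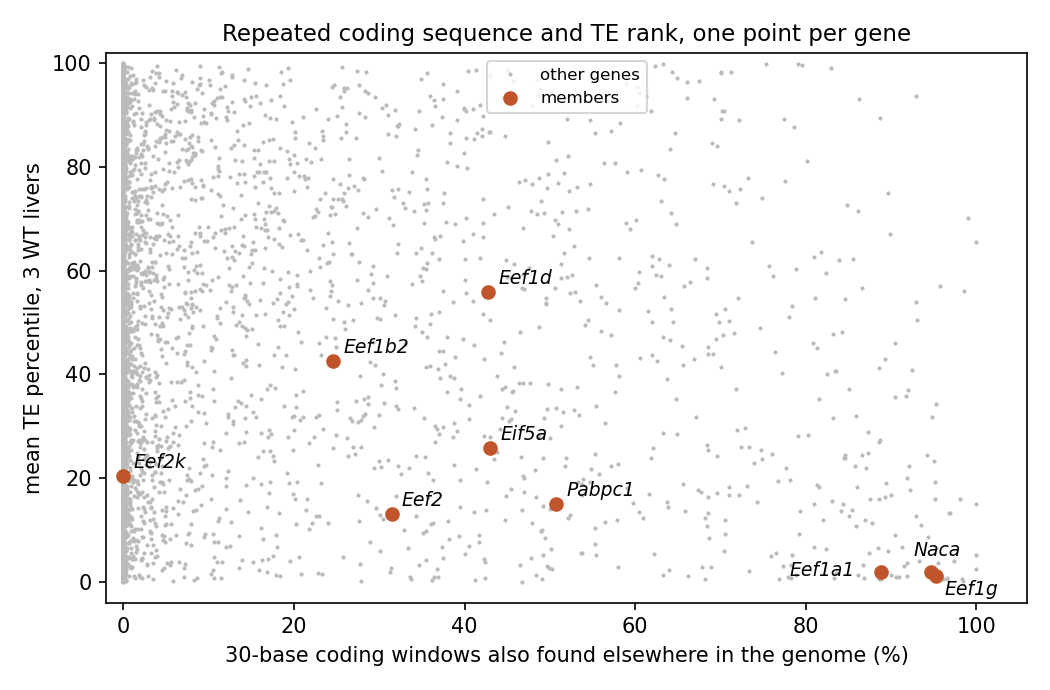
Mean TE percentile over 3 WT livers (y axis) against the percentage of 30-base coding windows that also occur elsewhere in the genome (x axis), 1 point per gene, members in orange. Eef1a1, Naca and Eef1g lie together at the lower right, above 80% and under the 2nd percentile, and Eef2k at 0% and percentile 20.4.

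The comparison of KO with WT livers asks whether loss of METTL5 changed these mRNAs or their translation. No member passed an adjusted p of 0.05 in input, RPF or TE, where 0%, 0.489% and 0% of all genes tested did. For input, edgeR's quasi-likelihood test called 0 of 10 members and 0 of 10057 genes, with 0 members and 348 genes (3.46%) at an unadjusted p under 0.05. DESeq2 called 0 members and 1 gene. For RPF, limma called 0 of 9 members and 44 of 8994 genes, with 1 member, Eef1b2, and 1205 genes (13.4%) at an unadjusted p under 0.05. For TE it called 0 of 9 members and 0 of 8994 genes, with 0 members and 423 genes (4.7%) at an unadjusted p under 0.05. edgeR on whole reads recovered from the table called 0 members in RPF and in TE.

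**Figure D4:**
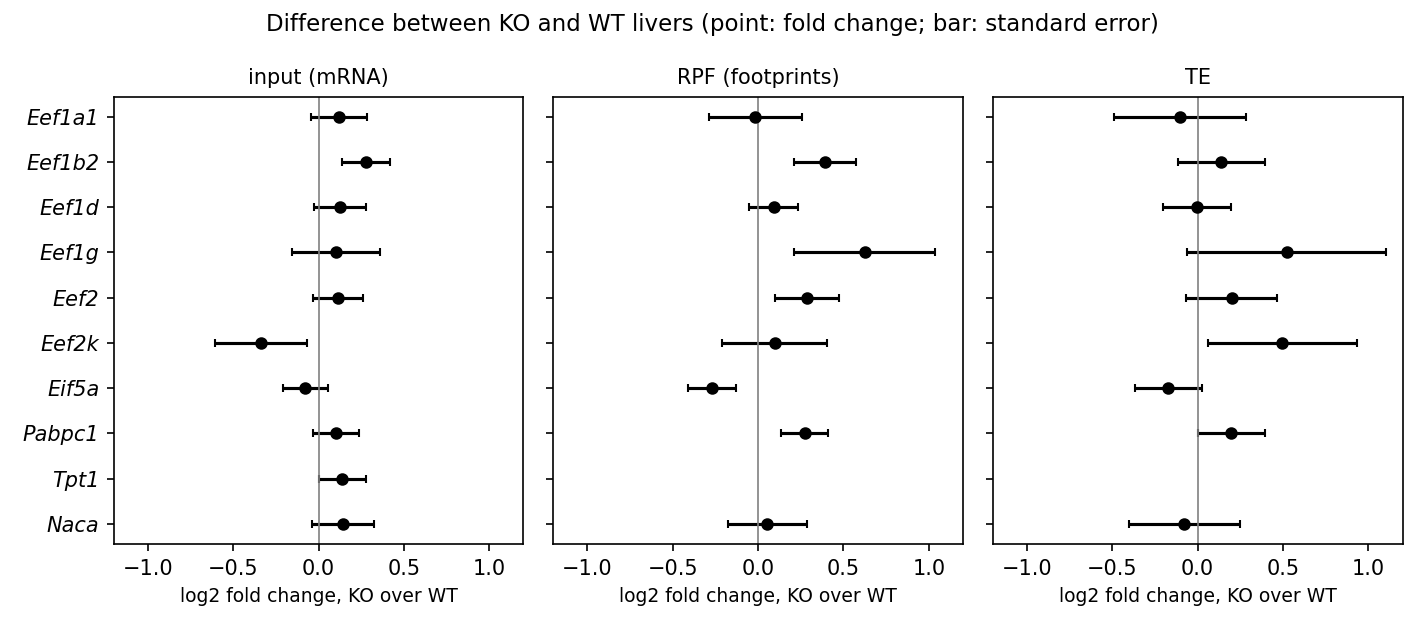
Log2 fold change of KO over WT (x axis) for each gene, with bars of 1 standard error, in input (edgeR), RPF and TE (limma). Most points lie within 0.4 of 0. Eef1g in RPF and TE and Eef2k in TE lie farther out and have the longest bars, and Tpt1 has no RPF or TE value.

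In input, the members' median log2 fold change was 0.12, beside −0.00037 over all genes. It was above 0 for 8 of 10 members and 50.0% of all genes. The 76 cytosolic ribosomal protein genes tested in input also had a median of 0.12, with 53 above and 23 below 0. Eef1b2 had the smallest p. Its levels were 28.4, 27.9 and 33.9 CPM in WT and 40.0, 33.7 and 35.8 in KO livers. The KO littermate was higher in each of the 3 litters, but the groups overlapped (log2 fold change 0.28, SE 0.14, edgeR adjusted p = 0.999). Eef1a1 had 215, 209 and 269 CPM in WT and 286, 267 and 202 in KO livers (0.12, SE 0.16). Its KO littermate was higher in litters 1 and 2 and lower in litter 3, as was that of Eef2, with 315, 314 and 375 in WT and 367, 393 and 325 in KO livers (0.11, SE 0.15). Such a shared pattern within litters is also what Tpt1 showed. Tpt1, the translationally controlled tumor protein, had 44.7, 48.0 and 54.2 in WT and 59.2, 50.1 and 52.2 in KO livers (0.14, SE 0.14).

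The remaining members did not pass in input either. Eef2k, the eEF2 kinase, had 26, 39 and 34 counts in WT and 72, 24 and 23 in KO livers, in libraries of unequal depth. Scaled with TMM factors as well as depth, these were 3.57, 4.58 and 3.35 CPM in WT and 3.69, 2.42 and 2.77 in KO livers (−0.34, SE 0.27). Eif5a was lower in KO in each of the 3 litters, with 43.6, 47.5 and 50.7 CPM in WT and 41.1, 45.8 and 47.7 in KO livers (−0.08, SE 0.13). Each KO value lay only a little under that of its littermate. Pabpc1, Eef1d, Eef1g and Naca had log2 fold changes of 0.10 to 0.14. No member's WT and KO livers were apart in input, while 4.23% of all genes were higher in KO without overlap and 4.34% lower.

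In footprints the members' median log2 fold change was 0.10, beside −0.03 over all genes, with 7 of 9 members and 46.0% of all genes above 0. Eef1b2 was again the gene with the smallest p. Its normalized RPF values were 259, 486 and 367 in WT and 414, 490 and 519 in KO livers. The KO littermate was higher in each of 3 litters, by 155, 3.62 and 152, so litter 2 hardly differed (log2 fold change 0.39, SE 0.18, limma adjusted p = 0.359). The value ranged from 0.16 without WT replicate 1 to 0.61 without WT replicate 2.

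Pabpc1 showed the same arrangement. Its normalized RPF values were 337, 414 and 302 in WT and 439, 422 and 400 in KO livers, higher in KO in each of 3 litters and close together among the KO livers (0.27, SE 0.14, limma adjusted p = 0.411). Eif5a went the other way, with 442, 346 and 400 in WT and 364, 310 and 307 in KO livers. It was lower in KO in each of 3 litters (−0.27, SE 0.14, limma adjusted p = 0.411). For comparison, 17.4% of all genes were higher in KO in each of 3 litters in RPF and 23.8% lower, against 2 and 1 of the 9 members.

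Eef2 had RPF values of 1422, 2444 and 1442 in WT and 2583, 2000 and 1764 in KO livers. The KO littermate was higher in litters 1 and 3 and lower in litter 2 (0.29, SE 0.19, limma adjusted p = 0.534). The value was 0.13 without KO replicate 1 and 0.54 without WT replicate 2. The fold change of Eef2, whose coding sequence has 57.3% GC, was 0.15 once a trend with GC content was removed. Eef1a1 had 418, 578 and 320 in WT and 660, 362 and 313 in KO livers, with its highest value in KO liver 1 and its lowest in KO liver 3 (−0.02, SE 0.27). That difference was within the spread in either direction.

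Eef1g, Eef2k and Naca had few footprints. Eef1g had the largest fold change of the group in RPF, on 6, 10 and 17 reads in WT and 7, 23 and 24 in KO livers. As normalized values these were 5.23, 8.53 and 8.77 in WT and 4.87, 14.1 and 22.9 in KO livers (0.62, SE 0.41, limma adjusted p = 0.538). Litter 1 went against the other two, and KO liver 1 lay below all WT livers. Without KO replicate 1 the log2 fold change was 1.19 and the adjusted p 0.0811. Eef2k had 14.8, 23.0 and 39.2 in WT and 29.2, 22.1 and 25.8 in KO livers (0.10, SE 0.31). Naca had 16.6, 27.3 and 22.2 in WT and 18.8, 25.2 and 23.9 in KO livers (0.05, SE 0.23). Eef1d was the steadiest, with 218, 262 and 241 in WT and 243, 258 and 265 in KO livers (0.09, SE 0.14). No member's WT and KO livers were apart in RPF either, while 6.97% of all genes were higher in KO without overlap and 12.9% lower.

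TE did not set the groups apart. The members' median log2 fold change in TE was 0.14, beside −0.01 over all genes, with 5 of 9 members and 48.7% of all genes above 0. The widest differences were 0.52 (SE 0.58) for Eef1g and 0.50 (SE 0.44) for Eef2k, both with low reads. Eef1g entered this comparison only through its footprints in KO livers. Leaving out 1 mouse gave 0.33 (without KO replicate 2) to 0.92 (without KO replicate 1) for Eef1g, and 0.21 (without WT replicate 1) to 0.94 (without WT replicate 3) for Eef2k. The 3 KO livers of Eef2k had log2 TE of −0.68, −0.51 and −0.50, within the WT range and closer together than the WT livers. Eif5a was the single member with the same direction in each of 3 litters, lower in KO by 0.14, 0.09 and 0.29, with log2 TE of −0.53, −0.96 and −1.04 in KO livers (−0.17, SE 0.20). Its value was −0.032 without WT replicate 1 and −0.33 without KO replicate 1. Of all genes, 16.4% were lower in TE in each of 3 litters and 14.7% higher.

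For Eef2, Pabpc1, Eef1b2 and Eef1d the litters disagreed in TE in 1 pattern. The KO littermate was higher in litters 1 and 3 and lower in litter 2, by 0.70, −0.60 and 0.50 for Eef2, by 0.45, −0.28 and 0.42 for Pabpc1, by 0.24, −0.24 and 0.42 for Eef1b2 and by 0.17, −0.34 and 0.15 for Eef1d. WT liver 2 had the highest WT value of each of these genes. Eef1a1 followed it too, with 0.31, −1.005 and 0.38. Its TE ranged from −3.48 in WT liver 3 to −2.27 in WT liver 2, a wider range than the difference of the group means, −2.84 in WT and −2.95 in KO livers. TE of no member was apart between groups, while 6.08% of all genes were higher and 7.34% lower in KO without overlap.

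Ratios within the pathway, in which the library factor cancels, overlapped between the groups. Per kb, input of Eef2 over that of its kinase gene Eef2k was 196, 153 and 249 in WT and 221, 363 and 262 in KO livers (exact permutation test, two-sided, p = 0.200). In RPF it was 81.0, 89.5 and 31.0 in WT and 74.7, 76.2 and 57.7 in KO livers (exact permutation p = 1.00). Eef1b2 over Eef1d in RPF was 1.48, 2.32 and 1.90 in WT and 2.12, 2.37 and 2.45 in KO livers (exact permutation p = 0.200). Eef2 over Eef1a1 in RPF was 1.83, 2.28 and 2.43 in WT and 2.11, 2.97 and 3.04 in KO livers (exact permutation p = 0.300). These were among 8 ratio tests on 3 against 3 livers, with adjusted p of 0.8 or more, where the smallest p possible is 0.1, so none could pass 0.05. Within litters, 3 of the 8 ratios were higher in the KO littermate in each of 3 litters, namely Eef2 over Eef2k in input and Eef1b2 over Eef1d and Eef2 over Eef1a1 in RPF. An exact paired permutation test gave p = 0.25 for each of them, the smallest that 3 pairs allow.

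Across the 6 livers the members did not vary as 1 group in RPF. Over the 36 pairs, Pearson's r of log2 RPF values ran from −0.95 to 0.99 with a median of 0.24. Over all pairs of tested genes the median was 0.0041 and the quartiles were −0.39 and 0.39. Eef1b2 and Eef1d, partners in the eEF1B complex, varied most alike (r = 0.99), and Naca varied with both (0.85 and 0.90). Eef2 and Pabpc1 formed a second such pair (0.88), with Eef1a1 nearer to Eef2 (0.78). Eif5a ran against Eef1b2 (−0.95) and Eef1d (−0.92). In input, r was 0.16 for Eef1b2 with Eef1d, 0.69 for Eef2 with Pabpc1 and −0.32 for Eif5a with Eef1b2. In TE these pairs had 0.52, 0.97 and −0.86. These values are descriptions over 6 libraries that share litters and differ in depth and genotype.

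**Figure D5:**
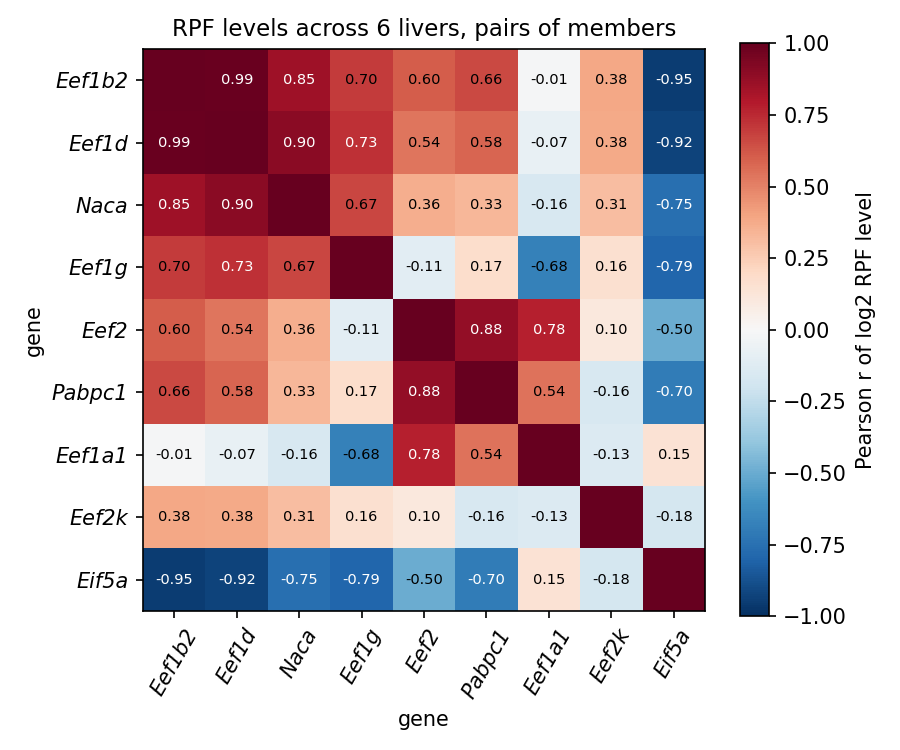
Pearson's r of log2 normalized RPF values over 6 livers for each pair of the 9 genes, with genes on both axes and colour and number giving r. Eef1b2, Eef1d and Naca form a block with r of at least 0.85, Eef2 and Pabpc1 have 0.88, and Eif5a is negative with all but Eef1a1.

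The genes most like the members' mean standardized log2 RPF profile over the 6 RPF libraries, among 3794 genes with a mean of at least 100, were Ido2 (r = 0.97), mt-Nd4 (0.96), Myadm (0.95), Arsa (0.94) and Chd1 (0.94). None of them is a translation factor. How often an r this high arises among so many genes over 6 libraries was not tested. The mean does not stand for every member, since r of a member with the mean of the others ran from −0.87 for Eif5a through 0.09 for Eef1a1, 0.20 for Eef1g and 0.21 for Eef2k to 0.90 for Eef1b2. The median r with this profile was 0.11 for 8 cytosolic ribosomal protein genes and −0.10 for all genes compared.

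Related genes of the pathway were also without calls in RPF, apart from 1 ribosomal protein gene, and in input and TE none of these lists had a gene that passed in either direction. Of 11 paralogs and further elongation and termination factors, 9 were tested in RPF, and 0 passed (0.489% of all genes), with 2 above 0 and 7 below. The smallest p values among them belonged to Gspt1, the release factor eRF3, at −0.24 (SE 0.15, limma adjusted p = 0.499), and Hbs1l, a ribosome rescue factor, at −0.22 (SE 0.16). Gspt1 RPF values were 531, 470 and 496 in WT and 414, 432 and 420 in KO livers. In WT this list had a median TE percentile of 62.5 and a median share of repeated windows of 0%.

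Among 13 enzymes that modify elongation factors, 10 were tested in RPF and none passed, with 5 above and 5 below 0. Dohh, which completes hypusine on eIF5A, had RPF values of 24.4, 25.6 and 29.4 in WT and 16.7, 61.5 and 65.0 in KO livers (0.61, SE 0.44). Dph1, of diphthamide synthesis on eEF2, had 70.6, 78.5 and 75.8 in WT and 82.7, 97.1 and 89.8 in KO livers (0.26, SE 0.25). Of 9 regulators of TOP mRNAs, 9 were tested and none passed, with 5 above and 4 below 0. Rheb, the GTPase that turns on mTORC1, had −0.38 (SE 0.18, limma adjusted p = 0.372). Larp1, which binds TOP mRNAs, had 253, 351 and 370 in WT and 262, 462 and 507 in KO livers (0.30, SE 0.22).

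Further TOP mRNAs outside the ribosomal proteins numbered 13, of which 10 were tested in RPF and none passed, with 5 above and 5 below 0. Nop53, an assembly factor of the large ribosomal subunit, had RPF values of 135, 180 and 198 in WT and 248, 256 and 292 in KO livers, with no overlap (0.65, SE 0.18, limma adjusted p = 0.107). Of all genes, 6.97% were higher and 12.9% lower in KO without overlap in RPF, among them also Gspt1, Dph1 and, below, Rpl7 and Rpl35a. Npm1, the nucleolar protein nucleophosmin, had 41.0, 50.3 and 35.6 in WT and 81.3, 53.5 and 46.8 in KO livers (0.48, SE 0.20, limma adjusted p = 0.311). Of 79 cytosolic ribosomal protein genes, 31 were tested in RPF, and 1 passed, lower in KO. This was Rpl7, a large subunit protein, with 54.0, 42.7 and 31.5 in WT and 23.6, 19.1 and 15.3 in KO livers (−1.09, SE 0.22, limma adjusted p = 0.0246). By edgeR on whole reads the adjusted p of Rpl7 was 0.0402. Its limma adjusted p was 0.0066 with litter as a block, and 0.0393 with that block and the GC trend removed. It was 0.0254 without WT replicate 3 and 0.0195 without KO replicate 1. The limma adjusted p of Rpl7 was 0.131 without WT replicate 1, 0.177 without WT replicate 2, 0.123 without KO replicate 2 and 0.185 without KO replicate 3. It was 0.1004 with the GC trend removed and 0.130 on the RPF columns alone, and 89.0% of its coding windows are repeated elsewhere, so reads shared with copies make its level uncertain. Rpl35a had −0.85 (SE 0.27, limma adjusted p = 0.160). The list's median log2 fold change in RPF was 0.08, with 17 above and 14 below 0. Its median TE percentile in WT was 6.45, with a median of 88.5% repeated windows, beside which Eef1a1, Eef1g and Naca had values of the same order in both.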

How the data were processed

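Input counts were deposited by the authors as whole read pairs per gene: BBDuk trimming, STAR 2.7.3a alignment to mm10, uniquely mapped reads and stranded featureCounts (the file header names a later featureCounts version than the 1.6.0 of the methods). For RPF the authors used read 1 after rRNA removal and RiboToolkit with a single location allowed and duplicates kept. The authors' deposited normalized signal equals reads divided by 1 factor per library, with no gene length. Divided by the smallest value of its column, each value came out whole within a tolerance of 0.01, and input reads equalled the counts. The deposited columns of fold changes and p-values were not used, and 0 columns lacked a sample.

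Input counts were tested with edgeR 4.0.16 (R 4.3.3, TMM, filterByExpr, quasi-likelihood, robust). For RPF and TE, limma 3.58.1 was run on log2(value + 1), which understates changes of low genes, with 4 group means and genes whose mean reached 10 in each assay. This main TE contrast did not link the input and RPF libraries of a liver. With mouse as a block, 0 members passed in TE (smallest limma adjusted p 0.778). Of 8994 genes, 0 passed and 774 had an unadjusted p under 0.05, and the SE of Eef1g was 0.42. p-values are two-sided and Benjamini-Hochberg adjusted over all genes. Scripts were tested on simulated data. DESeq2 1.42.0, other filters, pseudocounts and scalings, blocks of litter and of mouse, GC correction, edgeR on whole reads and leaving out each mouse were alternatives. The design had assumed normalized values, and whole reads were recovered once the table was examined. Annotation matched 55227 of 55487 count table genes and gave coding sequences for 10594 of 10607. Sequences are GENCODE vM21, GRCm38, and the annotated starts of 1 member are not reported here.

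Same-numbered mice are littermates by the labels, so they are paired. Their deviations from group means correlated at 0.0816, 0.127 and 0.100 in input and 0.242, 0.144 and 0.195 in RPF, against −0.117 to 0.0169 and −0.239 to 0.0813 between litters. Members, lists and tests were chosen with earlier results of these data known. Genes named beyond the members were the 2 of each list with the smallest unadjusted p in RPF, any that passed, Mettl5 and the 5 most like the members' RPF profile.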

Additional observations from a re-analysis of the deposited data

How the results depend on the processing

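Under the alternatives run, 0 members passed an adjusted p of 0.05 in input, RPF or TE, also when each mouse was left out. With the replicate block of litter 0 members passed in each, and the smallest adjusted p in RPF was 0.201; the pairing changed no call of a member. Over all genes the RPF count was 44, and 293 with the replicate block, 7 with the GC trend removed, 66 with both, 66 by edgeR on whole reads, 23 on RPF columns alone and 0 to 226 when a mouse was left out. The input count was 0, and 30 with no count filter, 2 with the block, 2 by limma on the normalized table, 1 by DESeq2 and 0 to 21 when a mouse was left out. The log2 fold change of Eef1a1 in RPF, −0.016, turned to 0.052 by edgeR on whole reads and 0.064 with the GC trend removed, with or without the replicate block. That of Eef2k in RPF turned to −0.029 by edgeR, and that of Naca in TE to 0.033 with the GC trend removed, with or without the block. Leaving out a mouse gave ranges across 0 in input for Eef1g (−0.15 to 0.27) and Naca (−0.0065 to 0.26), in RPF for Eef1a1 (−0.34 to 0.20), Eef2k (−0.23 to 0.45) and Naca (−0.13 to 0.22), and in TE for Eef1a1 (−0.42 to 0.18), Eef1b2 (−0.058 to 0.41), Eef1d (−0.074 to 0.078), Eef2 (−0.0074 to 0.50) and Naca (−0.37 to 0.25). The cause was not tested. The median TE percentile of members in WT, 15.0, was 12.3 to 16.3 when a WT mouse was left out, 19.6 with TE per kb of coding sequence and exon, and 8.50 with TE per kb of representative transcript, an alternative chosen after seeing the data. Genes with a mean of at least 50 left out Eef1g, Eef2k and Naca in RPF and TE and Eef2k in input, and without KO replicate 3 Eef1g had no RPF or TE value. With 6 to 24 RPF reads for Eef1g, depth limits what could be seen there.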
